A study of Mus musculus with 6 samples.

Results

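Lcn2, Reg3a, Reg3b, Reg3g, Saa1, Saa3, Duox2, Duoxa2, Nos2 and Pigr are genes with which the intestinal epithelium holds microbes away from its surface. They make up 10 of the 28752 genes measured here, and all 10 were found by gene name. They were selected on their role and on measured values, the difference between circEZH2_005 and vector samples in these same data being known when they were picked. That difference is therefore given below as a description, and counts of these genes past a threshold are not read as tests. RNA sequencing was performed on 6 samples of mouse intestinal crypt stem cells, with 3 samples in each group. In the paper's general organoid methods, Lgr5+ intestinal stem cells (ISCs) came from Lgr5-GFP mice, in which green fluorescent protein marks cells that express the stem cell gene Lgr5. There they were grown into crypt-villus organoids in IntestiCult medium. For the sequencing itself the paper names only intestinal crypt cells, so this origin is taken from the general methods. The circEZH2_005 group received an adenovirus that overexpresses circEZH2_005, a circular RNA, and the control group, labelled WT, carried the vector. Both groups went through hypoxia/reoxygenation (H/R), a culture model of ischemia and reperfusion in which organoids stay for 4 h in 5% CO2, 2% O2 and 93% N2, and the virus was given 72 h before this challenge. No group without H/R was analysed here, so every value describes challenged cells. The study describes its experiments in general as independent biological replicates, and the labels do not say whether the samples of a group came from separate mice or cultures, so the p-values below measure only the spread between these samples, part of which may be technical.

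Epithelial antimicrobial defence works on several levels. Secreted lectins of the Reg3 family bind and damage bacteria in the mucus, lipocalin 2 withholds iron by capturing bacterial siderophores, and serum amyloid A proteins are made in the acute phase response. The dual oxidase Duox2, with its maturation factor Duoxa2, releases hydrogen peroxide at the apical surface, inducible nitric oxide synthase (Nos2) makes nitric oxide, and the polymeric immunoglobulin receptor (Pigr) carries IgA into the lumen. Many of these genes are switched on by IL-22, IL-17 and microbial products acting through STAT3, NF-kB and C/EBP transcription factors.

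The promoter of 9 of the 10 genes was read from RefSeq (GRCm38.p6), from 250 bases before to 50 bases after the gene start. The window was searched on both strands for the NF-kB consensus, the STAT motif TTCNNNGAA, the C/EBP motif TTGCNNAA and the hypoxia response core ACGTG, and on the gene's own strand for the TATA box TATAAA. A match is a run of letters and does not show that a factor binds there. Nos2 was not searched. The stretches shown are those that set the 4 genes with the lowest circEZH2_005 to vector ratio beside their close relatives. All are written 5′ to 3′ on the gene's strand with the motif in capitals, and positions count from the RefSeq gene start. That start lies inside the gene as the deposited table bounds it by 228 bases for Reg3b, 58 for Lcn2 and 24 for Saa3, and 2 bases before it for Reg3g, so the Reg3b windows printed here fall within the deposited bounds of the gene.
Reg3g, NF-kB at -123 to -114, minus strand of chr6:78468978-78469007: cgcttttgatGGGAAACCCCtagagtccat
Reg3b, STAT at -129 to -121, plus strand of chr6:78370746-78370775: agcctgttctTTCTTGGAAactctttgagt
Lcn2, C/EBP at -216 to -209, minus strand of chr2:32387937-32387966: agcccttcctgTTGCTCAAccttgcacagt
Saa3, C/EBP at -99 to -92, minus strand of chr7:46715757-46715786: ggtaagtgggaTTATGCAAgatcaaacagg
Saa1, C/EBP at -182 to -175, minus strand of chr7:46743144-46743173: ctgtgctcccaTTGCACAAtgagggagaat
Reg3a, C/EBP at -190 to -183, plus strand of chr6:78380508-78380537: tactatcaacaTTGCAGAAtttcaaacatc
Reg3b, TATA box at -29 to -24, plus strand of chr6:78370844-78370873: ctcaaattctgtTATAAAaacacagtcatc
Reg3g, TATA box at -27 to -22, minus strand of chr6:78468884-78468913: ctcaagtcctacTATAAAaacagtcatctc

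The motif in Saa3 reads as TTGCNNAA on the other strand. A C/EBP match was found in 4 of the 9 promoters, those of Lcn2, Reg3a, Saa1 and Saa3, and in 10.8% of all 32851 promoter windows of this length. The TATA box was found in 3 of the 9, those of Reg3b, Reg3g and Duoxa2, and in 8.32% of all windows. STAT was matched in Reg3b and Pigr (8.30% of all windows), NF-kB in Reg3g alone (8.46%) and the hypoxia core in Pigr alone (19.6%). The C/EBP match was shared by genes whose samples did not overlap between the groups (Lcn2, Saa3) and by genes whose samples overlapped (Reg3a, Saa1).

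The libraries held between 71506487 and 79919893 counts, and the 10 most abundant genes took 7.97% to 9.83% of them. Of the 28752 genes, 18348 passed the filter on low counts, all 10 defence genes among them. At an adjusted p under 0.05 (edgeR quasi-likelihood test, Benjamini-Hochberg), 493 genes were higher with circEZH2_005, which is 2.69% of those tested, and 181 were lower, which is 0.986%. The 8 general epithelial markers summed to 8058 to 8503 CPM (counts scaled to library size) with the vector and 10233 to 13218 with circEZH2_005. The 8 crypt stem cell markers summed to 2076 to 2914 and 1397 to 2034 CPM, and 9 enterocyte markers to 14306 to 16751 and 14788 to 29029 CPM. Many of these markers moved with the groups. By edgeR 3 of the 8 crypt stem cell markers fell (Lgr5, Smoc2 and Rgmb, log2 fold changes -0.88, -0.81 and -0.58) and 6 of 8 were lower without overlap. Axin2 went the other way (0.31, overlapping). Of the epithelial markers 2 of 8 rose (Krt20 and Krt8, 1.18 and 0.57). Of the enterocyte markers 5 of 9 were higher without overlap, of which 1 (Apoa4, 0.91) passed the test. Fabp1 (-0.37) and Sis (-0.29) went the other way, with overlap. Of all genes tested, 16.4% were higher and 14.2% lower without overlap. Of these 6 calls, 0 were left without vector sample 1 or vector sample 3, 1 (Krt20) without circEZH2_005 sample 2 or 3, and 5 without circEZH2_005 sample 1. In other marker lists, Clca1 (goblet, log2 fold change 0.76) and Pecam1 (endothelium, 1.93) were also called higher by edgeR. The 9 Paneth cell markers summed to 4912, 4518 and 8459 CPM with the vector and 3978, 2866 and 5127 CPM with circEZH2_005, which overlap. Their log2 fold changes ran from -0.92 (Mmp7) to -0.42 (Itln1), and 0 passed by edgeR. Vector sample 2 was the lowest of its group, as for Reg3b and Reg3g. In the other group circEZH2_005 sample 2 was the lowest, where it was the highest for Reg3b and Reg3g. The part of these marker shifts in the defence genes was not tested. T cell genes were present in every library, although the samples are labelled intestinal crypt stem cells. Vector sample 2 stood apart from the other vector samples in T cell genes, with 601 CPM over 10 markers against 153 and 187 CPM. Without that sample the number of genes called was 1098 higher and 334 lower, and values without it are given below for each defence gene. Without circEZH2_005 sample 1 it was 553 higher and 128 lower. Leaving out any remaining sample lowered both numbers, to 26 higher and 2 lower without vector sample 1 and 31 and 2 without vector sample 3. They were 62 and 6 without circEZH2_005 sample 2, and 136 and 33 without circEZH2_005 sample 3.

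Relative to the vector samples, the defence genes divided by gene rather than moving as one group. Reg3b, Reg3g, Lcn2 and Saa3 were lower in every circEZH2_005 sample than in any vector sample, Nos2 was higher in every one, and the samples of Reg3a, Saa1, Duox2, Duoxa2 and Pigr overlapped. The number lower without overlap was 4 of 10, where 14.2% of all genes tested were, and the number higher was 1 of 10, where 16.4% were. At an adjusted p under 0.05 by edgeR, 3 of the 10 (Lcn2, Reg3b and Saa3) were called lower and 0 higher, against 0.986% and 2.69% of all genes tested. At an unadjusted p under 0.05 the counts were 4 lower and 1 higher, where 9.72% and 14.0% of all genes were. DESeq2 called 4 lower and 0 higher, against 2.43% and 5.47% of all genes, and limma 2 and 0, against 2.74% and 2.79%. With the fold change over 2 at an unadjusted p under 0.05, 4 were lower, against 1.34% of all genes, and 1 was higher, against 6.22%. The choice of the genes used this contrast, and nothing is read from these counts. The median log2 fold change of the 10 genes was -0.26, where that of all genes tested was 0.00. Leaving out vector sample 1, vector sample 3 or circEZH2_005 sample 2 lowered the number called lower from 3 to 0, and leaving out circEZH2_005 sample 1 or sample 3 lowered it to 1.

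**Figure D1:**
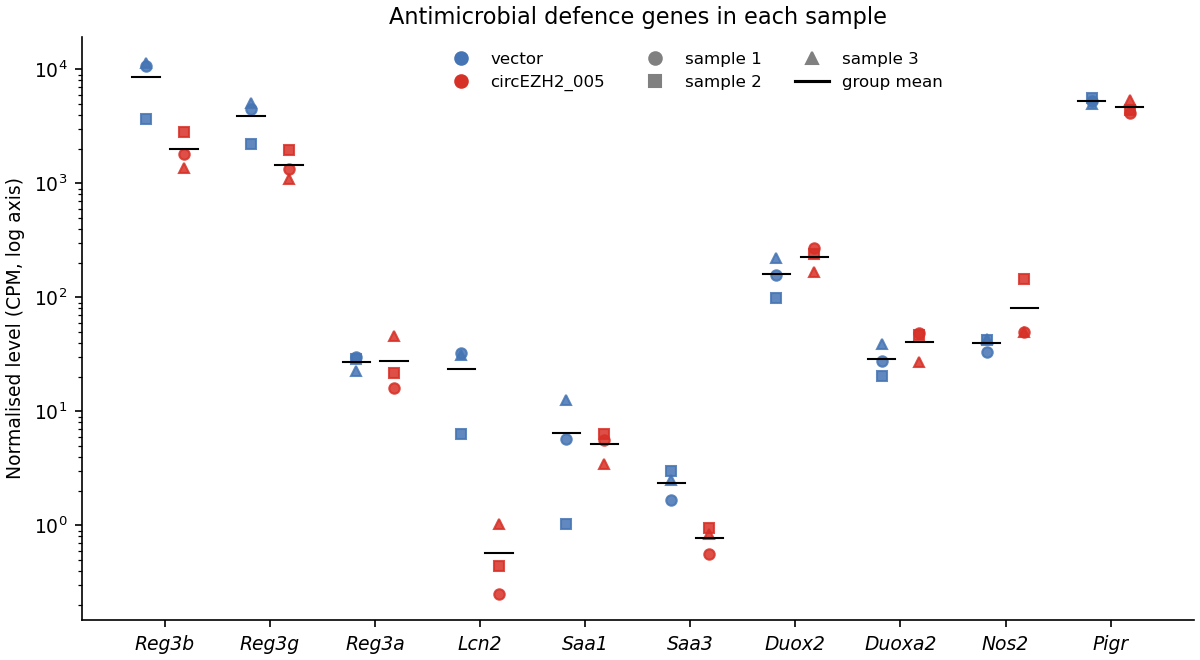
Level of each defence gene in each of the 6 samples, in CPM on a log axis, with vector samples in blue, circEZH2_005 samples in red, a marker shape for each sample number and a black line at the group mean. Reg3b, Reg3g, Lcn2 and Saa3 are lower in all 3 circEZH2_005 samples, with Lcn2 at 6.29 to 32.7 CPM against 0.252 to 1.02 CPM, while Reg3a, Saa1, Duox2, Duoxa2 and Pigr overlap.

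**Figure D2:**
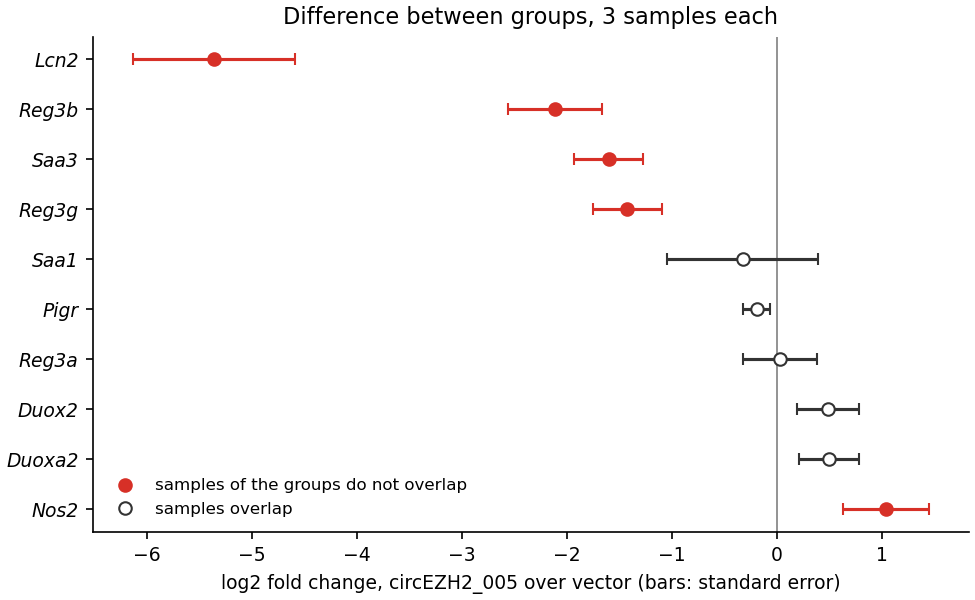
The log2 fold change of each defence gene, circEZH2_005 over vector, with its standard error from the edgeR fit (3 samples a group). Filled red points mark genes whose samples do not overlap between the groups. The values run from -5.36 for Lcn2 to 1.04 for Nos2.

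Reg3b was the most abundant of these genes. It encodes a C-type lectin and lies at chr6:78370657-78373466 (GRCm38, plus strand, 6 exons). Its counts were 781997, 273294 and 886580 in the vector samples and 143038, 208577 and 96977 in the circEZH2_005 samples. Vector sample 2 was far below the other vector samples and still above the highest circEZH2_005 sample. In length-corrected FPKM, the level of Reg3b was 6937 ± 3421 with the vector and 1507 ± 522 with circEZH2_005 (SD, n = 3 each), which placed it 7th and 28th among all genes by group mean. The log2 fold change was -2.11 with a standard error (SE) of 0.45, or 4.33-fold lower, and it was -2.48 without vector sample 2.

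Reg3g, the mouse gene best known for keeping Gram-positive bacteria off the mucosal surface, lies in the same cluster at chr6:78466269-78468872 (minus strand, 6 exons). It had 323409, 166592 and 396540 counts with the vector and 105376, 146209 and 78071 with circEZH2_005. The order of the samples was the same as for Reg3b within both groups, with vector sample 2 again the lowest of the vector samples, and the groups did not overlap. The Reg3g level was 1712 ± 644 and 599 ± 170 FPKM (SD, n = 3 each), and its difference was -1.43 on the log2 scale (SE 0.33), 2.69-fold lower, or -1.71 without vector sample 2.

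Reg3a lies between them, 7242 bp from Reg3b, at chr6:78380709-78383827 (plus strand, 6 exons), and behaved differently. Its counts were 2151, 2173 and 1772 with the vector and 1263, 1630 and 3268 with circEZH2_005. The vector samples were close together, and the circEZH2_005 samples held both the lowest and the highest values. The level of Reg3a was 30.4 ± 4.33 and 29.0 ± 15.6 FPKM (SD, n = 3 each), and the log2 fold change was 0.03 (SE 0.35). It was 0.09 without vector sample 2 and took the other sign in 6 of 14 alternative fits. Reads shared between these related genes could be assigned to more than 1 of them, which makes the lower counts of Reg3a the less certain.

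Together the 3 Reg3 genes took 1.55%, 0.612% and 1.67% of all counts in the vector samples and 0.327%, 0.446% and 0.240% in the circEZH2_005 samples. The 95% Wilson intervals of these shares were within 0.00287 percentage points, and they cover counting error only. The share was lower in every circEZH2_005 sample than in any vector sample. The ratio of Reg3b to Reg3g FPKM within a sample was 4.48, 3.04 and 4.14 with the vector and 2.51, 2.64 and 2.30 with circEZH2_005. Reg3b was above Reg3g in every sample, and the excess was smaller in every circEZH2_005 sample. Relative to Reg3a, Reg3g was 58.7, 29.9 and 87.4 times as high with the vector and 32.6, 35.0 and 9.33 times with circEZH2_005, so these ratios overlapped.

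**Figure D3:**
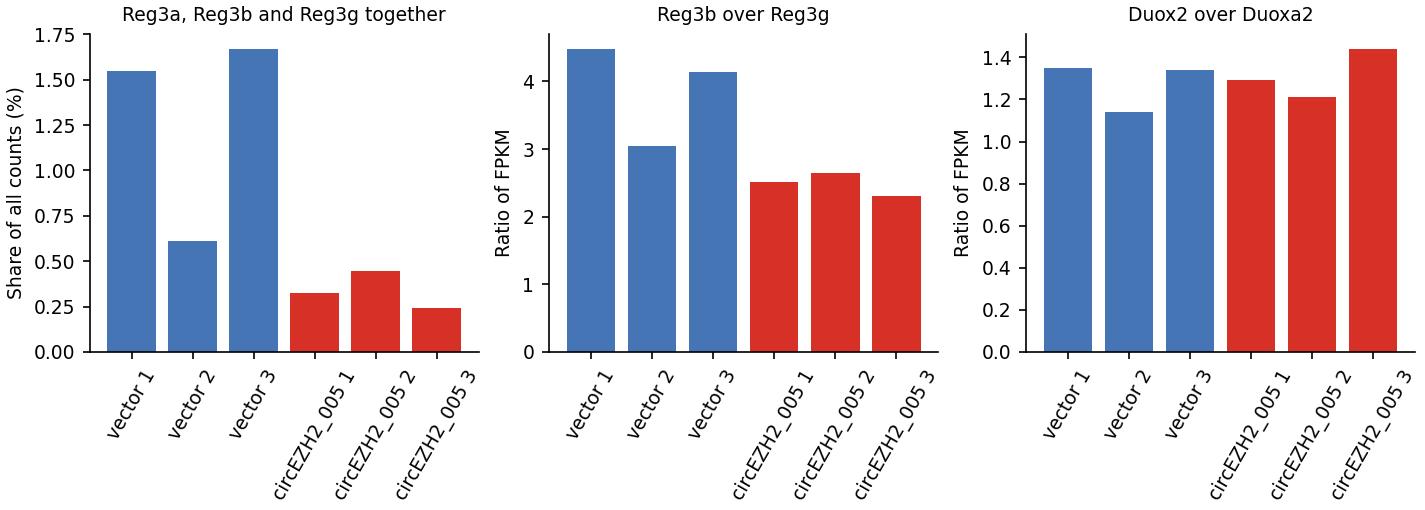
Left, share of all counts taken by Reg3a, Reg3b and Reg3g in each sample, in percent. Middle and right, ratio of Reg3b to Reg3g FPKM and of Duox2 to Duoxa2 FPKM in each sample, with vector in blue and circEZH2_005 in red. The Reg3 share is 0.612% to 1.67% with the vector and 0.240% to 0.446% with circEZH2_005, while the Duox2 ratio stays between 1.14 and 1.44 in all 6 samples.

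The other Reg genes of the cluster were Reg1, Reg2 and Reg3d. Reg1, which encodes a secreted C-type lectin and lies 37601 bp from Reg3g, had 23852, 28583 and 21334 counts with the vector and 4300, 7968 and 12351 with circEZH2_005. The groups did not overlap, and its log2 fold change of -1.56 (SE 0.37) did not pass the test across all genes (edgeR adjusted p = 0.0601). Reg3d, between Reg3b and Reg3a, had 15 to 157 counts in a library with overlapping groups, and Reg2 had 13 counts in vector sample 2 and 0 in the others.

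Lcn2 had the largest difference of the 10 genes. Lipocalin 2 is a secreted protein made by epithelium and by neutrophils, and the gene lies at chr2:32384633-32387797 in the deposited table (minus strand, 6 exons). It had 2371, 470 and 2441 counts with the vector and 20, 33 and 73 with circEZH2_005. In CPM the levels were 32.7, 6.29 and 31.2 against 0.252, 0.443 and 1.02. The lowest vector sample was thus above the highest circEZH2_005 sample, and vector samples 1 and 3 were 5.08 times as high as vector sample 2 on average. By FPKM the level was 8.20 ± 5.17 with the vector and 0.178 ± 0.125 with circEZH2_005 (SD, n = 3 each). The log2 fold change was -5.36 (SE 0.77), or 41.2-fold lower, and it stayed between -6.07 and -5.00 when 1 sample was left out (-5.82 without vector sample 2). On the log2(FPKM + 1) scale, which compresses low levels, it was -2.74. The nearest genes on either side of Lcn2, 1110008P14Rik and Ptges2, differed by -0.12 and 0.08 on the log2 scale.

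Since neutrophils also make Lcn2, their markers were read in the same samples. The 8 neutrophil markers analysed, of 10 listed, summed to 5.94, 1.71 and 9.10 CPM with the vector and 0.679, 0.887 and 0.991 CPM with circEZH2_005. The sum was lower in every circEZH2_005 sample than in any vector sample. Most of it in vector samples 1 and 3 came from Ly6g, a neutrophil surface antigen, with 332, 0 and 425 counts with the vector and 0 in each circEZH2_005 sample. Without Ly6g the other 7 markers summed to 1.35, 1.71 and 3.67 CPM against 0.679, 0.887 and 0.991 CPM, so only through Ly6g was vector sample 2 the lowest of its group, as it was for Lcn2. The calprotectin subunit gene S100a8 had 33, 27 and 76 counts with the vector and 13, 9 and 21 with circEZH2_005, and S100a9 had 33, 66 and 95 against 4, 22 and 21. Retnlg, another neutrophil gene, went the other way, with 0, 0 and 19 counts against 9, 14 and 4, which overlap. Of the granule genes, Camp had at most 2 counts in a library, and Mpo and Elane were not analysed here. Ngp, also a granule gene, had 10, 0 and 7 counts with the vector and 0, 0 and 7 with circEZH2_005, which overlap. Of the 3 neutrophil markers with enough counts for a test, 0 passed by edgeR after adjustment, 2 were lower at an unadjusted p under 0.05, DESeq2 called 1 lower and limma 0. The part of neutrophil RNA in the Lcn2 difference was not tested.

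**Figure D4:**
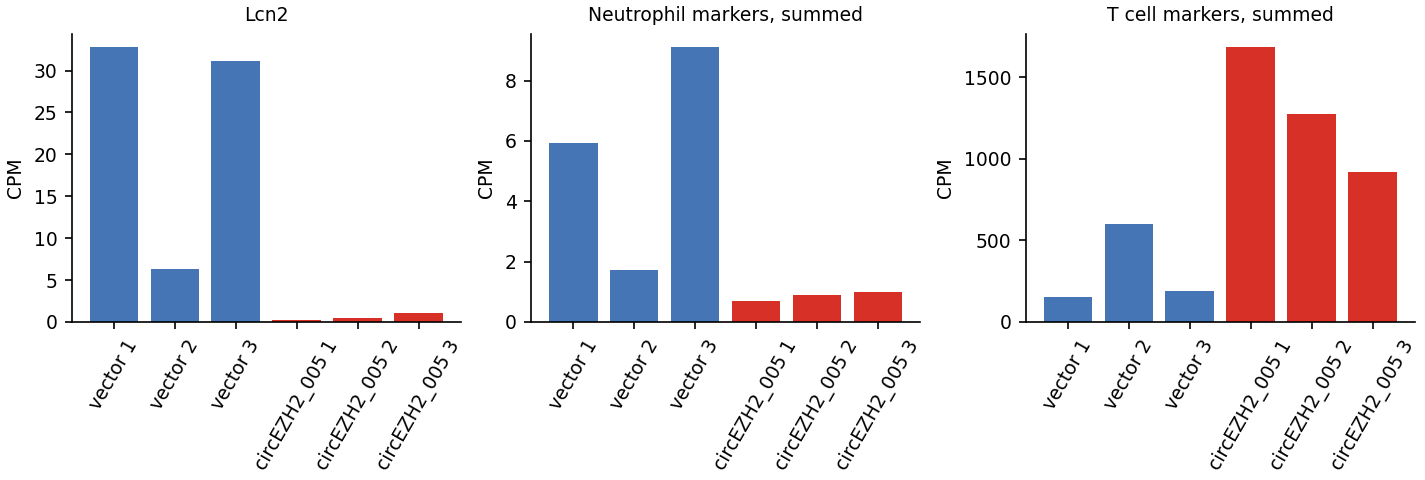
Level of Lcn2 (left) and summed level of the neutrophil (middle) and T cell (right) markers in each sample, in CPM, with vector in blue and circEZH2_005 in red. Lcn2 and the neutrophil sum are below all vector samples with circEZH2_005, and the low neutrophil sum of vector sample 2 comes from Ly6g, without which the vector sums are 1.35, 1.71 and 3.67 CPM, while the T cell sum is 153 to 601 CPM with the vector and 916 to 1682 CPM with circEZH2_005.

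The genes most like Lcn2 over the 6 samples, out of 11601 genes whose mean reached 1 FPKM, were Chd9, Irf2bp1, Pllp, Magt1 and Hes6. Their Pearson correlations with Lcn2 in log2 CPM were 0.998, 0.998, 0.995, 0.994 and 0.993. Their own differences were far smaller, with log2 fold changes from -0.95 for Pllp to -0.39 for Magt1. Among the defence genes, Reg3b (0.93) and Reg3g (0.91) were most like Lcn2, followed by Saa3 (0.79, under the FPKM minimum and so outside the ranking), Pigr (0.58), Saa1 (0.20) and Reg3a (0.19), while Duox2 (-0.37), Duoxa2 (-0.42) and Nos2 (-0.63) were opposite in sign. All points share the same 6 libraries and the group difference, and these values are a description.

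The serum amyloid A genes were low and differed in pattern. Saa3, at chr7:46711998-46715700 (minus strand, 4 exons), encodes a form made mainly outside the liver. It had 120, 223 and 194 counts with the vector and 45, 70 and 60 with circEZH2_005. All circEZH2_005 samples were below all vector samples. The mean level was under 1 FPKM in both groups, at 0.842 ± 0.250 and 0.254 ± 0.0474 (SD, n = 3 each), and the log2 fold change was -1.60 (SE 0.33), 3.04-fold lower, or -1.40 without vector sample 2. Unlike Lcn2 and the Reg3b and Reg3g genes, Saa3 was highest in vector sample 2 among the vector samples.

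Saa1, an acute phase apolipoprotein, lies 24796 bp from Saa3 at chr7:46740497-46742980 (minus strand, 4 exons). It had 416, 76 and 982 counts with the vector and 445, 475 and 246 with circEZH2_005. The vector samples spanned a 12.3-fold range in CPM that contained all circEZH2_005 samples. The level was 2.39 ± 2.17 and 1.81 ± 0.550 FPKM (SD, n = 3 each), and the log2 fold change of -0.33 (SE 0.72) became -0.83 without vector sample 2 and took the other sign in 3 of 14 alternative fits. The neighbouring Saa2, whose sequence is nearly identical to that of Saa1, had 0 to 11 counts in a library, and reads that fit both genes make the split between them uncertain.

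The oxidant genes were at moderate levels. Duox2, at chr2:122279247-122298449 (minus strand, 32 exons), had 11447, 7332 and 17495 counts with the vector and 21388, 17807 and 11908 with circEZH2_005. Its maturation factor Duoxa2, at chr2:122298900-122302885 (plus strand, 6 exons), starts 450 bp away on the other strand and had 1987, 1517 and 3077 against 3898, 3467 and 1950 counts. For both genes the samples of the groups overlapped, with vector sample 2 the lowest and circEZH2_005 sample 3 the lowest of its group. The Duox2 level was 21.8 ± 8.52 and 29.1 ± 8.12 FPKM, and that of Duoxa2 16.8 ± 5.56 and 22.5 ± 7.29 FPKM (SD, n = 3 each).

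Duox2 and Duoxa2 kept a similar ratio across the samples. The ratio of their FPKM was 1.35, 1.14 and 1.34 with the vector and 1.29, 1.21 and 1.44 with circEZH2_005, and these ranges overlapped. The log2 fold changes were 0.49 (SE 0.30) and 0.50 (SE 0.28), and without vector sample 2 they were 0.24 and 0.30. Duoxa1, which overlaps Duoxa2 on the opposite strand, had 96, 58 and 104 counts against 170, 169 and 138, with a log2 fold change of 0.88 (SE 0.28) that did not pass the test (edgeR adjusted p = 0.114). The strand setting of the counting is not given in the sources used here, so reads of Duoxa1 and Duoxa2 may not be separable.

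Nos2, at chr11:78920787-78960254 (plus strand, 27 exons), had 2413, 3142 and 3383 counts with the vector and 3944, 10796 and 3528 with circEZH2_005. Every circEZH2_005 sample was above every vector sample in CPM, the nearest pair being 43.2 and 49.2 CPM, and sample 2 was 145 CPM. The level was 8.24 ± 1.22 and 15.7 ± 10.03 FPKM (SD, n = 3 each), and the log2 fold change was 1.04 (SE 0.41), 2.06-fold higher. This size rested on 1 library, since it was 0.32 without circEZH2_005 sample 2. Without vector sample 2 it was 1.09. Lgals9, 2719 bp after Nos2, differed by 0.57 (SE 0.14) on the log2 scale and did not pass the test (edgeR adjusted p = 0.0639).

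Pigr, at chr1:130826684-130852249 (plus strand, 11 exons), was among the most abundant of these genes and, with the smallest SE, the steadiest. It had 382613, 422398 and 390038 counts with the vector and 327432, 328618 and 386529 with circEZH2_005. In CPM the groups overlapped, since circEZH2_005 sample 3 was at 5395 CPM and the lowest vector sample at 4983 CPM. The level was 1220 ± 86.6 and 1002 ± 118 FPKM (SD, n = 3 each), 32nd and 34th among all genes, and the log2 fold change was -0.19 (SE 0.13), or -0.14 without vector sample 2. Fcamr, a receptor for the Fc part of IgA and IgM that lies 11943 bp before Pigr, had 239, 233 and 292 counts with the vector and 119, 128 and 134 with circEZH2_005. Fcamr was lower with a log2 fold change of -0.996 (SE 0.20, edgeR adjusted p = 0.0448), and it no longer passed in 5 of 6 fits that left out a sample, with vector sample 2 the exception and adjusted p from 0.0362 to 0.172.

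By FPKM, the order of the 10 genes was Reg3b, Reg3g, Pigr, Reg3a, Duox2, Duoxa2, Nos2, Lcn2, Saa1 and Saa3 with the vector. With circEZH2_005 it was Reg3b, Pigr, Reg3g, Duox2, Reg3a, Duoxa2, Nos2, Saa1, Saa3 and Lcn2. The ranges of Duox2 and Duoxa2 overlapped in both groups, although Duox2 was above Duoxa2 within each of the 6 samples. All 10 genes together took 1.21% to 2.22% of counts with the vector and 0.783% to 0.898% with circEZH2_005, and most of this difference was Reg3b and Reg3g.

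A list of other antimicrobial proteins was drawn broadly, and it also holds genes such as the gasdermin Gsdmc2 and the enzyme Ido1. Among the 30 genes of this list that were tested, 3 rose and 0 fell with circEZH2_005 (edgeR adjusted p under 0.05). At an unadjusted p under 0.05 the counts were 6 higher and 8 lower, DESeq2 called 6 and 7, limma 3 and 1, and the median log2 fold change was -0.23. For this list and those below, edgeR called 2.69% of all genes higher and 0.986% lower. At an unadjusted p under 0.05 these shares were 14.0% and 9.72%, by DESeq2 5.47% and 2.43%, and by limma 2.79% and 2.74%. Gsdmc2, a gasdermin of gut epithelium, had 238, 399 and 514 counts with the vector and 4759, 3865 and 2703 with circEZH2_005, a log2 fold change of 3.30 (SE 0.28, edgeR adjusted p = 0.00449). Sprr2a3, of the small proline-rich family that includes a secreted antimicrobial protein, had 2577, 2148 and 2808 counts against 7891, 9168 and 9045, a log2 fold change of 1.80 (SE 0.13, edgeR adjusted p = 0.00249). Ido1, the tryptophan-degrading enzyme induced by interferon, had 177, 1071 and 264 counts against 7841, 10406 and 5110, a log2 fold change of 3.94 (SE 0.67, edgeR adjusted p = 0.0310). Gsdmc2 and Sprr2a3 passed in all 6 fits that left out a sample. Ido1 did not pass without vector sample 1, vector sample 3, circEZH2_005 sample 2 or circEZH2_005 sample 3, with adjusted p up to 0.129. The direction of these 3 genes was opposite to that of Lcn2, Reg3b, Reg3g and Saa3, but the list as a whole went both ways. Without overlap between the groups, 6 of its 30 genes were higher and 7 lower, where 16.4% and 14.2% of all genes tested were. Reg1, S100a8 and S100a9 were among the 7 lower.

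Of 18 oxidant defence partners tested, 1 rose and 0 fell. Ncf1, a cytosolic subunit of the phagocyte oxidase, had 243, 513 and 303 counts with the vector and 1434, 1125 and 832 with circEZH2_005 (log2 fold change 1.67, SE 0.30, edgeR adjusted p = 0.0342). It passed without vector sample 2 and in none of the other 5 fits that left out a sample, where adjusted p reached 0.152. At an unadjusted p under 0.05, 8 partners were higher and 3 lower, DESeq2 called 5 and 2, limma 1 and 2, and the median log2 fold change was 0.28. Ncf1 is mostly a gene of white blood cells, and the 10 T cell markers were higher in every circEZH2_005 sample, at 1682, 1275 and 916 CPM against 153, 601 and 187 CPM. By edgeR 0 of these 10 markers passed after adjustment, all 10 were higher at an unadjusted p under 0.05, DESeq2 called 9 and limma 2. The B and plasma cell markers summed to 40.7 to 79.4 CPM with the vector and 68.5 to 301 CPM with circEZH2_005, and the macrophage markers to 33.1 to 42.6 and 41.1 to 65.9 CPM. Their part in the differences of the oxidant genes, Nos2 included, was not tested. In bulk RNA of this kind, fewer cells of a type and less RNA per cell cannot be told apart.

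Of the ligands known to induce these genes, 12 of 18 could be tested. Il22 was not analysed here, and Il17a, Il17f and Il6 had counts in 1 library at most, of 3 to 8. Il18, the epithelial cytokine that inflammasomes activate, fell, with 7002, 4001 and 6335 counts with the vector and 1299, 2041 and 1258 with circEZH2_005 (log2 fold change -1.91, SE 0.27, edgeR adjusted p = 0.0204). It did not pass without vector sample 1, vector sample 3 or circEZH2_005 sample 3, with adjusted p up to 0.102. For the list, 1 fell and 0 rose, the counts at an unadjusted p under 0.05 were 5 higher and 2 lower, DESeq2 called 2 and 2, limma 0 and 1, and the median log2 fold change was 0.33.

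Among 23 receptors and sensors tested, 0 rose and 0 fell by edgeR, 8 were higher and 2 lower at an unadjusted p under 0.05, DESeq2 called 3 higher and 0 lower, and limma called 0 and 0. The median log2 fold change was 0.38. The epithelial subunit of the IL-22 receptor, Il22ra1, had 2851, 3063 and 3293 counts with the vector and 3559, 4856 and 3573 with circEZH2_005. Its groups did not overlap, and its log2 fold change of 0.38 (SE 0.14) did not pass the test (edgeR adjusted p = 0.145). Il22ra1 was chosen for mention after its values were seen.

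Of 35 genes of STAT3 and NF-kB signalling, all tested, 1 rose and 0 fell, 11 were higher and 1 lower at an unadjusted p under 0.05, DESeq2 called 6 and 0, and limma 1 and 0, the limma call not being Stat3. The median log2 fold change was 0.15. Stat3 had 7594, 8400 and 7996 counts with the vector and 10706, 13310 and 10764 with circEZH2_005. The groups did not overlap, and the log2 fold change was 0.54 (SE 0.11, edgeR adjusted p = 0.0496). This call was at the threshold and was lost in 6 of 8 other settings: median-of-ratios scaling, upper-quartile scaling, no low-count filter, limma with either pseudocount and the replicate block. It was also lost without vector sample 1, vector sample 3, circEZH2_005 sample 2 or circEZH2_005 sample 3, where adjusted p reached 0.187.

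Of 11 genes tested that are linked to Lcn2 and Pigr, mostly for handling iron or antibody and including Cd209a and Mmp14, 1 fell and 0 rose, 3 were higher and 3 lower at an unadjusted p under 0.05, DESeq2 called 1 and 3, and limma 0 and 2. The median log2 fold change was -0.05. Tfrc, the transferrin receptor for iron uptake, had 48122, 32911 and 58582 counts with the vector and 19832, 16870 and 18024 with circEZH2_005 (log2 fold change -1.35, SE 0.19, edgeR adjusted p = 0.0203). It did not pass without vector sample 1, vector sample 3, circEZH2_005 sample 2 or circEZH2_005 sample 3, with adjusted p up to 0.0969. The antibody chains that Pigr carries, Igha and Jchain, differed by 1.74 and 1.92 on the log2 scale, did not pass the test (edgeR adjusted p = 0.107 and 0.0892) and are also B and plasma cell markers.

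**Figure D5:**
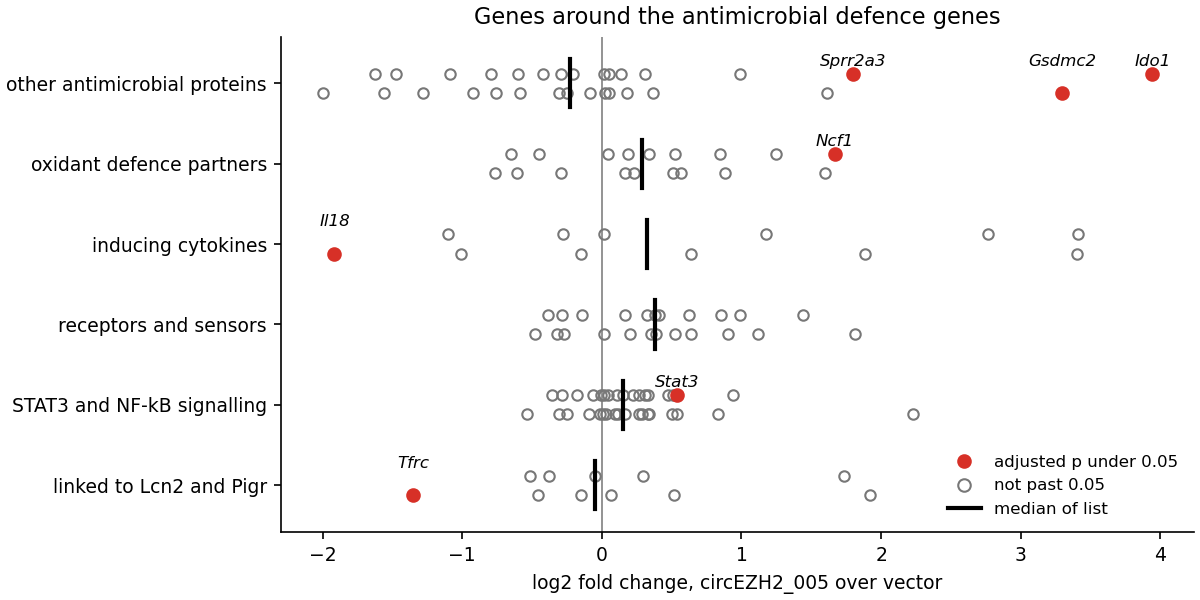
The log2 fold change, circEZH2_005 over vector, of each tested gene in the 6 lists around the defence genes. Red points passed an adjusted p under 0.05 (edgeR), open points did not, and the black bar is the list's median, from -0.23 to 0.38. The named red genes are Gsdmc2, Sprr2a3, Ido1, Ncf1, Il18, Stat3 and Tfrc.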

How the data were processed

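RNA was sequenced from oligo(dT)-selected libraries of 6 samples, grouped by the sample labels. Per the submitters' processing notes, cutadapt 1.9, HISAT2 2.0.4, StringTie 1.3.4d and DESeq2 were used with mm10, and the annotation and strand setting are not given in the sources used here. The authors deposited raw read counts per gene without normalization. The authors also deposited FPKM, scaled for length and depth, which was used for levels between genes and for limma. Control columns, which are named as negative controls, were matched to the vector samples, since the labels hold no other control. The number of sample columns not used was 0.

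Genes were filtered with filterByExpr, scaled by TMM and compared with the edgeR 4.0.16 quasi-likelihood test in R 4.3.3, without covariates, over 18348 genes with Benjamini-Hochberg adjustment and a threshold of 0.05. CPM uses the TMM library sizes, and SE was derived from the log2 fold change and its F statistic (ratio to the root of F). DESeq2 1.42.0, limma 3.58.1 on log2(FPKM + 1) for genes whose mean reached 0.5 FPKM, other scalings and filters, a replicate block and leaving out each sample were alternatives. The tools edgeR, DESeq2 and limma were tested on simulated data, where DESeq2 called unchanged genes more often than edgeR or limma. Those counts were drawn with the trended dispersion of the edgeR fit and no outlying sample, so this order may not hold for the real data. Counting error is small beside the spread between samples.

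The genes named are all 10 defence genes, the list genes past the threshold (up to 4 in each direction), the 5 genes most like Lcn2, with a pseudocount of 0.5 CPM, genomic neighbours, and markers that moved with the groups. These genes, lists and rules were chosen with earlier results of these data known. Gene positions are from the deposited table and exons from GENCODE M21.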

Additional observations from a re-analysis of the deposited data

How the results depend on the processing

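The 3 samples a group limit every count of calls. Genes called higher and lower across the table (493 and 181) became 132 and 37 without the low-count filter, 1574 and 698 by DESeq2, and 323 and 319 by limma on log2(FPKM + 0.1). Lower calls became 364 by limma on log2(FPKM + 1), and higher calls 1142 by the fold change over 2 with an unadjusted p under 0.05. Leaving out 1 sample at a time, higher calls ranged from 26 to 1098 and lower calls from 2 to 334. The highest counts came without vector sample 2, and the lowest without vector sample 1 or, for lower calls, also vector sample 3.

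Defence genes called lower (3) became 1 without the filter and 1 by limma on log2(FPKM + 0.1), and ranged from 0 to 3 with a sample left out, while the fold rule called 1 higher. The signs of Lcn2, Reg3b, Reg3g, Saa3, Duox2, Duoxa2, Nos2 and Pigr held in all alternatives that tested them, and Reg3a and Saa1 changed sign in 6 and 3 of 14. Lcn2 passed the threshold in 11 of 14, Reg3b in 6 of 14, Reg3g in 2 of 14 and Saa3 in 3 of 13. Since these genes were chosen with this contrast known, nothing is read from these counts. The sign of these 2 genes was thus not settled: Reg3a ranged from -0.52 to 0.31 and Saa1 from -0.83 to 0.60 with a sample left out.

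By DESeq2, calls became 6 higher and 7 lower for other antimicrobial proteins, 5 and 2 for oxidant partners, 2 and 2 for cytokines, 3 higher for receptors, 6 higher for STAT3 and NF-kB signalling, and 1 higher and 3 lower for genes linked to Lcn2 and Pigr. By limma with either pseudocount, lower calls became 1 for other antimicrobial proteins, 2 for oxidant partners and 2 for genes linked to Lcn2 and Pigr. By the fold rule, other antimicrobial proteins had 4 lower, oxidant partners 2 higher, cytokines 4 higher and 2 lower, receptors 1 higher, and genes linked to Lcn2 and Pigr 2 higher. STAT3 and NF-kB signalling had 0 higher by median-of-ratios scaling, upper-quartile scaling, no filter or limma on log2(FPKM + 0.1), and oxidant partners 0 higher without the filter. With a sample left out, the ranges were 0 to 2 lower for other antimicrobial proteins, 0 to 2 higher and 0 to 1 lower for oxidant partners, 0 to 1 higher and 0 to 1 lower for cytokines, 0 to 2 higher for receptors, 0 to 5 higher for STAT3 and NF-kB signalling, and 0 to 2 lower for genes linked to Lcn2 and Pigr. The cause of these changes was not tested.

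The labels do not say whether the replicate numbers pair the samples. Same-numbered samples correlated at -0.27, -0.04 and 0.10 in their deviations from the group means, which cannot settle this with 3 samples a group. With the replicate block, calls across the table became 241 higher and 36 lower, defence genes called lower 1, oxidant partners called higher 0, cytokines called lower 0 and STAT3 and NF-kB signalling called higher 0.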
